A study of Mus musculus with 4 samples.

Results

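The 33 genes described here carry glucose into the cell, break it down to pyruvate, make or move lactate, gate the entry of pyruvate into the mitochondrion, or belong to the response to low oxygen. They were taken by symbol from a list, and all 33 were among the 27998 genes in the files. They were measured in 4 single-cell RNA libraries from ICR mouse embryos at embryonic day 12, with approximately 10 glands of each kind pooled, so each group is 1 library. The groups are the epithelium and the mesenchyme of the parotid and of the submandibular gland, all of the ICR strain, with no treatment or mutation named. Both tissues of each gland were parted with Dispase II and then dissociated in the cold with a Bacillus licheniformis protease, Accutase and Accumax. Because every group is 1 library, no difference below has a test, the spread between embryos is unknown, and all intervals are 95% intervals that cover counting error only.

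Glycolysis turns glucose into pyruvate in a preparatory phase that spends ATP and a payoff phase that returns it. Pyruvate then enters the mitochondrion or is reduced to lactate, and lactate dehydrogenase, built from Ldha and Ldhb subunits, runs that last step in both directions. When oxygen is low, hypoxia-inducible factor raises transcription of glucose transporters, most glycolytic enzymes, Ldha and Pdk1, and it binds a short promoter element with the core ACGTG or GCGTG.

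Levels are UMIs, each marking 1 captured RNA molecule, summed over the cells of a class, divided by all UMIs of that class and scaled to a common total (CPM). The classes are epithelial-like cells of the epithelium libraries, 1750 parotid and 3609 submandibular, and mesenchymal-like cells of the mesenchyme libraries, 3909 parotid and 4222 submandibular. Their median depth was 7112.5, 9817, 5561 and 5264.5 UMIs per cell in that order. The 12 mesenchymal markers summed to 130 CPM in parotid and 29.9 CPM in submandibular epithelial cells, against 4995 and 3849 CPM in the mesenchymal cells of the same glands. Between 10 and 34 cell barcodes were shared by any pair of libraries. A list of 16 immediate early or heat shock genes, which dissociation can raise, summed to 3509.5 CPM in parotid and 1496 CPM in submandibular epithelium, and to 5308 and 4038 CPM in the mesenchymes. Their part in the differences between libraries was not tested.

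Promoters are described as background, and their part in the levels below was not tested. A promoter is here the 250 bases before a start site, from RefSeq on GRCm38.p6. Entries were found for 31 of the 33 genes; Slc2a3 and Ndrg1 had no entry. Of the members' 45 promoters, 36 (80.0%) held ACGTG or GCGTG on either strand, read on the shown strand also as CACGT or CACGC, with overlapping matches merged into 1 run. The same share was 38.6% over all 32851 promoters in the table. Members' promoters were richer in G+C, with a median of 60.4% against 52.4%, and among all promoters with 55.2% to 67.6% G+C the share was 54.5%. A match is a string of letters and shows no binding. The 4 promoters below belong to the genes on which most of the results turn, with matches in capitals. They are Slc2a1 (chr4:119108495-119108744, plus strand), Ldha (chr7:46845554-46845803, plus strand, its first start), Ldhb (chr6:142507958-142508207, minus strand) and Eno1 (chr4:150236947-150237196, plus strand, its second start).
Slc2a1: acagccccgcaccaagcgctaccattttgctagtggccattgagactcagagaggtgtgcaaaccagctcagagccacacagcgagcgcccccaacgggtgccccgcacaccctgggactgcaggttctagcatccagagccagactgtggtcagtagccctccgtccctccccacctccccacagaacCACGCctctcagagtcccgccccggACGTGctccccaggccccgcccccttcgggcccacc
Ldha: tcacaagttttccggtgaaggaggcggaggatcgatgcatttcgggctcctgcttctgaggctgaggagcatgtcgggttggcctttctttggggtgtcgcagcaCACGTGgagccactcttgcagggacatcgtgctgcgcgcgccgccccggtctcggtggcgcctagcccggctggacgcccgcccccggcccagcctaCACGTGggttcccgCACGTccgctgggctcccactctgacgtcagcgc
Ldhb: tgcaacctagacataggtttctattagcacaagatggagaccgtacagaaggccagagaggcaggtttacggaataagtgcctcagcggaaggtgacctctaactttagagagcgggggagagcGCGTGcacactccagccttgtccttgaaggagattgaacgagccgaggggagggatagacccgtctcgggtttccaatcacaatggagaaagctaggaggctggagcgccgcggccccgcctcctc
Eno1: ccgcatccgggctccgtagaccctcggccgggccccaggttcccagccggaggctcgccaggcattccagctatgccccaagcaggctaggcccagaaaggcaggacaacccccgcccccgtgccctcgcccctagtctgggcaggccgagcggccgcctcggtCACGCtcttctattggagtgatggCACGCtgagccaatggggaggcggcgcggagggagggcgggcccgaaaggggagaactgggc
Ldha held 3 runs of matches between 145 and 34 bases before its start. In Ldhb there was 1, at 126 bases. Slc2a1 and Eno1 each held 2, the nearest at 36 and 62 bases. The promoters of Mif, Gpi1 and Tpi1, which are not shown, held 0.

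In both glands most of the members compared were higher in the epithelium than in the mesenchyme around it. A gene was compared where its mean over both classes was at least 25 CPM, and called where the ratio was at least 2. In the parotid gland 21 of 33 members could be compared. Of these, 9 were called higher in epithelium (Slc2a1, Slc2a3, Hk2, Pfkl, Aldoa, Eno1, Ldha, Pdk1 and Mif) and 0 in mesenchyme, where 5.48% and 7.63% of all 4835 genes compared were called. The median log2 ratio of epithelium to mesenchyme was 0.82 over the members and -0.03 over all genes compared, and 20 of 21 members lay above 1. With all kept barcodes in place of the class cells, Hk2, Aldoa, Ldha and Mif were short of 2-fold (1.57 to 1.83), which left 5 calls. Hk2 was also lost when 50 CPM in the higher class was asked. In the submandibular gland 19 members could be compared and 8 were called higher in epithelium (Slc2a1, Hk2, Pfkl, Eno1, Pkm, Ldha, Pdk1 and Mif), where 7.66% of all genes were called. Ldhb alone was called higher in mesenchyme, where 12.5% were. There the median log2 ratio was 0.86 over the members and -0.04 over all genes, and 16 of 19 members lay above 1. Here Eno1 was short of it with all kept barcodes (1.80), and Pdk1 was lost at 50 CPM. At 1.5-fold, 13 members were higher in parotid epithelium and 1 in its mesenchyme, where 11.4% and 14.8% of all genes were called, and 11 in submandibular epithelium and 1 in its mesenchyme, where 16.1% and 22.5% were. Of 27 further genes of glucose metabolism, 5 could be compared in the parotid and 6 in the submandibular gland, and 0 were called in either. In the parotid 1 of these 5 lay above 1, with a median log2 ratio of -0.05, and in the submandibular gland 4 of 6 did, with a median of 0.09. The 15 enzymes from hexokinase to pyruvate kinase together summed to 7621 CPM in parotid and 6084 CPM in submandibular epithelium, and to 4015 and 3522 CPM in the mesenchymes. Both comparisons of this kind use 1 dissection per tissue, so a tissue and its library cannot be told apart.

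**Figure D1:**
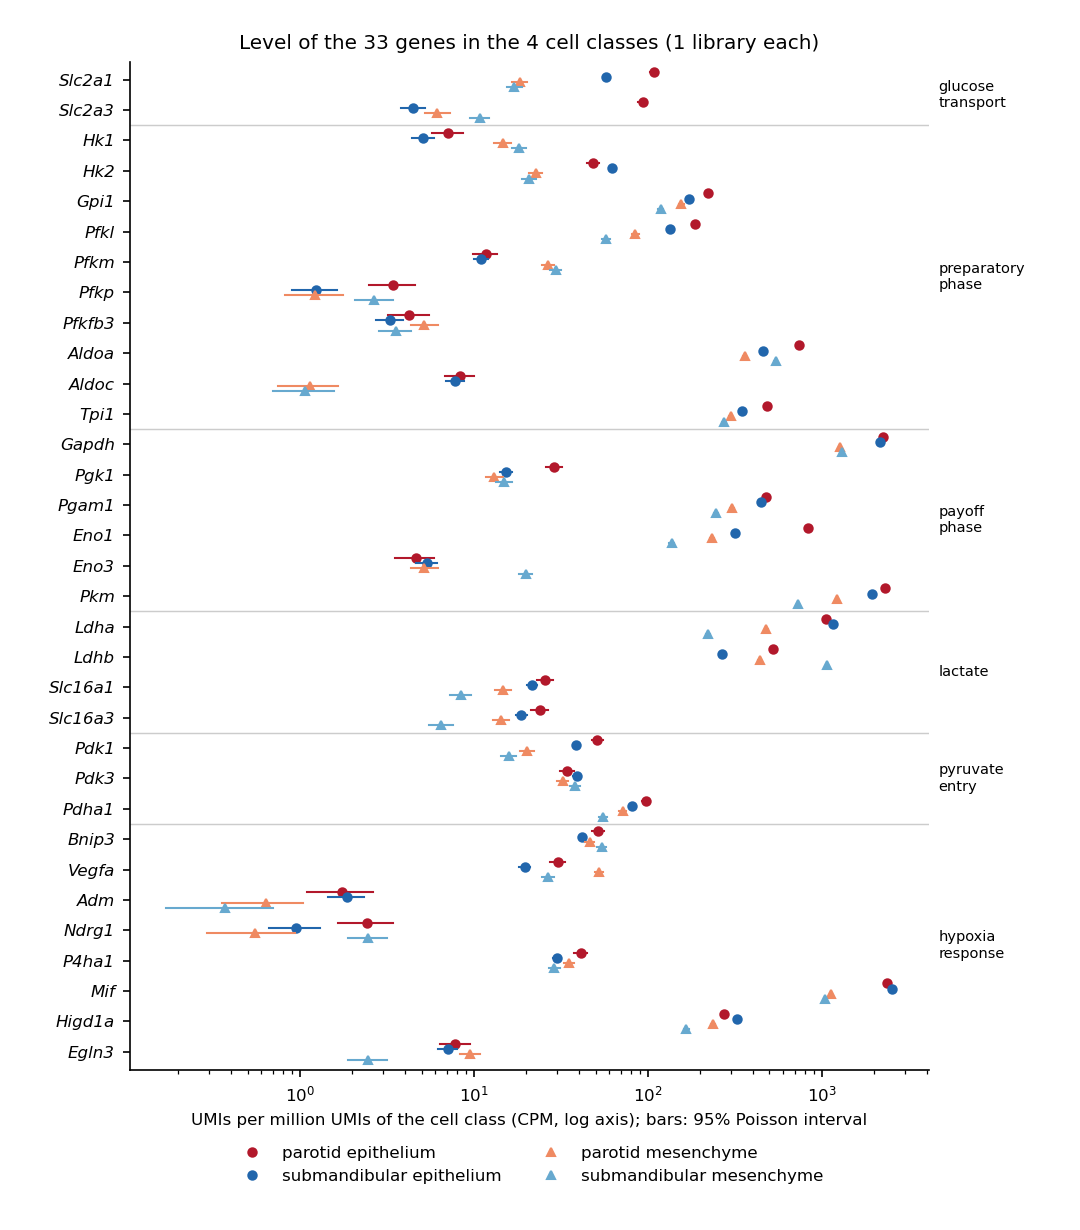
Level of each of the 33 genes in the 4 cell classes, as CPM on a log axis, grouped by role; circles are epithelium, triangles mesenchyme, and bars are 95% Poisson intervals. Slc2a3 stands at 93.2 CPM in parotid epithelium and between 4.48 and 10.8 CPM in the other classes, and Ldhb is highest in submandibular mesenchyme at 1068 CPM.

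Glucose enters through Slc2a1 (GLUT1) and Slc2a3 (GLUT3, a transporter of high affinity for glucose). Slc2a1 stood at 108 CPM in parotid epithelium, 57.3 CPM in submandibular epithelium, 18.3 CPM in parotid mesenchyme and 17.1 CPM in submandibular mesenchyme. The epithelium was 5.91-fold (5.30 to 6.59) above the mesenchyme in the parotid and 3.35-fold (3.02 to 3.73) in the submandibular gland, while the intervals of the mesenchymes overlapped. Parotid epithelium was 1.89-fold (1.77 to 2.02) above submandibular epithelium, short of the 2-fold rule. The 119 epithelial-like cells of the parotid mesenchyme library stood at 59.5 CPM (45.8 to 76.2), 1.04-fold (0.795 to 1.33) that of submandibular epithelium. Slc2a3 was at 93.2 CPM in parotid epithelium, 4.48 CPM in submandibular epithelium, 6.17 CPM in parotid mesenchyme and 10.8 CPM in submandibular mesenchyme. Parotid epithelium thus stood 20.8-fold (17.7 to 24.6) above submandibular epithelium and 15.1-fold (12.7 to 18.1) above its own mesenchyme. Most of those Slc2a3 molecules came from 80 cells, described further on. Without these cells the parotid epithelium was still 6.74-fold above the submandibular and 4.89-fold above its mesenchyme, but the mean level was under 25 CPM. The 119 epithelial-like cells of the parotid mesenchyme library stood at 23.6 CPM of Slc2a3, 5.28-fold (3.32 to 8.06) above submandibular epithelium. A stricter barcode filter (a minimum of 1000 genes, a maximum of 5% mitochondrial UMIs) gave 6.42-fold and 5.14-fold, again under the minimum.

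In the preparatory phase the isozymes of a step differed between the tissues in opposite directions. Hk2, the inducible hexokinase that traps glucose in the cell, stood at 48.1 CPM in parotid and 62.6 CPM in submandibular epithelium, against 22.7 and 20.8 CPM in the mesenchymes, a ratio of 2.12 (1.89 to 2.38) and 3.02 (2.74 to 3.33). Hk1, the constitutive hexokinase, went the other way, with 7.11 and 5.11 CPM in epithelium and 14.6 and 18.1 CPM in mesenchyme. Both Hk1 ratios exceeded 2, at 2.05 and 3.55, but the gene was under the minimum level. The forms of phosphofructokinase, the committed step, also differed in opposite directions. Its liver form Pfkl was at 187 and 135 CPM in parotid and submandibular epithelium and at 84.7 and 57.7 CPM in the mesenchymes, a ratio of 2.20 (2.08 to 2.34) and 2.33 (2.20 to 2.48). Its muscle form Pfkm was lower in epithelium, at 11.7 and 11.0 CPM, than in mesenchyme, at 26.6 and 29.6 CPM, but it too was under the minimum level. The platelet form Pfkp and Pfkfb3, whose product activates phosphofructokinase, stayed at 5.20 CPM or less in all 4 classes.

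Aldolase splits the sugar into triose phosphates, and its main form here behaved differently in the glands. Aldoa stood at 743 CPM in parotid epithelium and 360.2 CPM in parotid mesenchyme, a ratio of 2.06 (2.003 to 2.12). In the submandibular gland the values were 460.3 CPM in epithelium and 542 CPM in mesenchyme, a ratio of 0.849 (0.830 to 0.869), which turned above 1 when libraries were rescaled by TMM or by the median of ratios. Aldoc, the form best known from brain, was under the minimum but stood at 8.32 and 7.78 CPM in the epithelia against 1.14 and 1.07 CPM in the mesenchymes. Gpi1, the isomerase after hexokinase, ran from 222 CPM in parotid epithelium through 173 and 156 CPM to 118 CPM in submandibular mesenchyme. Triose phosphate isomerase, Tpi1, ran from 487 to 273 CPM in the same order of classes, and neither passed the 2-fold rule in any comparison.

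The payoff phase held the other member called between the epithelia besides Slc2a3. Eno1, the enolase of most tissues, stood at 835 CPM in parotid epithelium, 316 CPM in submandibular epithelium, 234 CPM in parotid mesenchyme and 137 CPM in submandibular mesenchyme. Parotid epithelium was 2.65-fold (2.58 to 2.72) above submandibular epithelium. The 11 parotid epithelial clusters ranged from 669.9 to 954 CPM and the 11 submandibular ones from 214 to 374 CPM, so the clusters of the glands did not overlap. Among the 20 members compared, Eno1 was the 1 (5.0%) of which that was true in epithelium, as it was of 1.20% of all 4585 genes compared. The value was lower in another library: 119 epithelial-like cells of the parotid mesenchyme library stood at 443 CPM of Eno1, below all 11 parotid clusters and 1.40-fold (1.28 to 1.54) above submandibular epithelium, which is short of 2-fold. A near copy, Eno1b, was counted at 24.7 CPM in parotid and 16.4 CPM in submandibular epithelium, so reads may be split between them and the level of Eno1 is uncertain to that extent. Eno3, the muscle enolase, was at 4.62 to 5.34 CPM in 3 classes and at 19.8 CPM in submandibular mesenchyme, below the minimum, where it reached 60.6 CPM in 1 cluster led by Cited1 and Mia.

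The last enzyme of glycolysis, pyruvate kinase, is encoded by Pkm. It stood at 2305 CPM in parotid epithelium, 1936 CPM in submandibular epithelium, 1216 CPM in parotid mesenchyme and 726 CPM in submandibular mesenchyme. The epithelial excess was 1.90-fold (1.86 to 1.93) in the parotid and 2.67-fold (2.62 to 2.71) in the submandibular gland. Among the 18 members compared, Pkm was the 1 (5.56%) whose mesenchymal clusters did not overlap between the glands, as was true of 3.32% of all 4995 genes compared. The ranges nearly touched, at 944 to 1724 CPM in the parotid and 559 to 937 CPM in the submandibular gland. Gapdh was also higher in epithelium, at 2250.3 and 2160.5 CPM against 1275 and 1313 CPM, with ratios of 1.76 and 1.65. Pgam1, the mutase, followed at 480.0 and 449 CPM against 305 and 247 CPM. The difference of these last 2 genes between the epithelia was small, and its direction flipped under TMM and the median of ratios. Pgk1, the first ATP-forming step, was counted at only 28.9 CPM in parotid epithelium and 13.1 to 15.3 CPM elsewhere. Its near copy Pgk1-rs7 took 1.31 to 2.88 CPM, so the level of Pgk1 is uncertain, and it was under the minimum in all 4 comparisons.

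**Figure D2:**
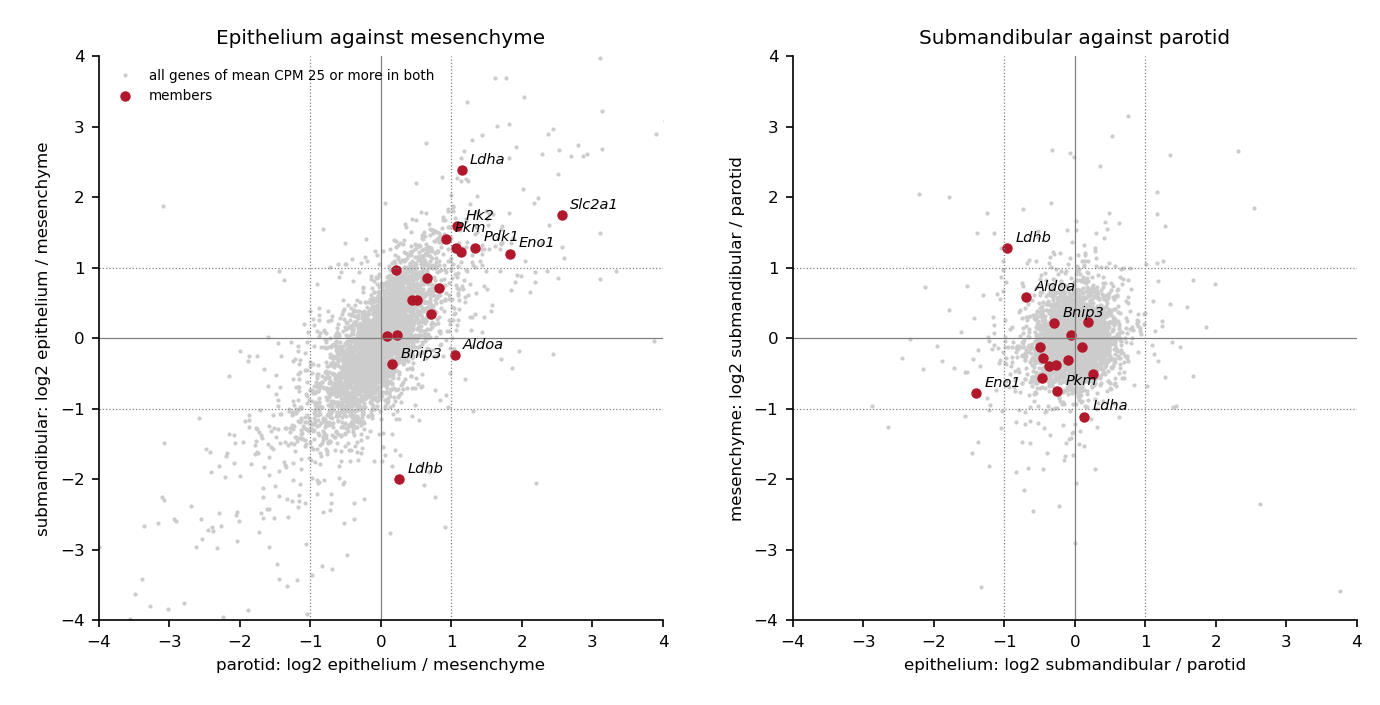
Log2 ratios of the members (red) over all genes with a mean of at least 25 CPM in both comparisons of a panel (grey); dotted lines mark 2-fold, and genes beyond a log2 ratio of 4 on either axis (121 of 4538 left, 7 of 4079 right) are not drawn. Left, epithelium over mesenchyme in the parotid (x) and submandibular (y) gland, with most members in the upper right; right, submandibular over parotid in epithelium (x) and mesenchyme (y), with Ldhb and Aldoa in the upper left.

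The subunits of lactate dehydrogenase differed in opposite directions between the tissues of the submandibular gland. The Ldha subunit favours making lactate and Ldhb favours using it, as textbook enzymology has it. Ldha stood at 1061 CPM in parotid epithelium, 1163 CPM in submandibular epithelium, 481 CPM in parotid mesenchyme and 223 CPM in submandibular mesenchyme. Ldhb was at 525, 269, 440.0 and 1068 CPM in the same order. In submandibular epithelium Ldha was thus 5.22-fold (5.07 to 5.37) above its mesenchyme while Ldhb was 3.98-fold (3.89 to 4.07) below it. In the parotid gland the epithelium was 2.21-fold (2.15 to 2.26) higher in Ldha and 1.19-fold (1.16 to 1.23) higher in Ldhb.

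Expressed as the share of Ldha in the summed Ldha and Ldhb UMIs, which compares cells and not the amounts of the subunits, the submandibular gland spanned from 81.2% (80.9 to 81.6) in epithelium to 17.3% (16.8 to 17.7) in mesenchyme. The parotid gland spanned only from 66.9% (66.3 to 67.5) to 52.2% (51.5 to 52.9). All 11 submandibular mesenchymal clusters lay between 8.16% and 31.1%. The 12 parotid mesenchymal clusters lay between 21.2% and 78.2%, so the ranges overlapped. Epithelial clusters spread from 39.5% to 87.7% in the parotid and from 46.4% to 89.4% in the submandibular gland. The lowest share in each epithelium was in a cluster with high Gjb2, a gap junction gene, among its leading genes.

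**Figure D3:**
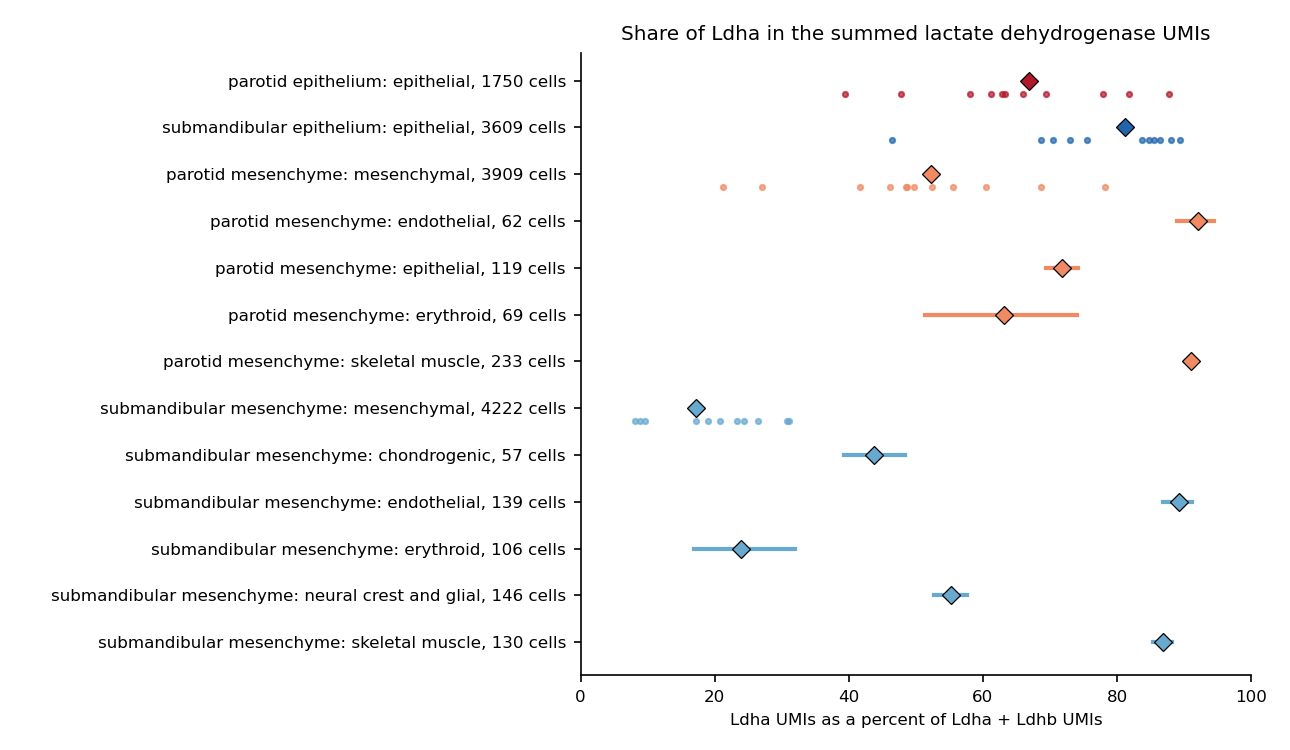
Ldha UMIs as a percent of Ldha and Ldhb UMIs for each class of at least 50 cells (diamonds, bars are 95% Clopper-Pearson intervals, hidden by the diamond where narrow); small dots under the epithelial or mesenchymal class named for its library are its clusters. Mesenchymal cells stand at 17.3% (submandibular) and 52.2% (parotid), and the endothelial and muscle classes between 86.9% and 92.0%.

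Between the mesenchymes, 18 members could be compared and 2 were called. Ldhb was 2.43-fold (2.37 to 2.48) higher in submandibular mesenchyme, where 3.38% of all 4995 genes were called. Ldha was 2.16-fold (2.09 to 2.23) higher in parotid mesenchyme, where 2.78% were. The Ldha call rested in part on 1 of the 12 parotid mesenchymal clusters, 231 cells led by the transcription factor genes Six2 and Msx1 and by Gdf10, a secreted growth factor. This cluster had the highest level of 18 of the 33 members among the parotid mesenchymal clusters. Among genes of at least 25 CPM in parotid mesenchyme, that was true of 11 of 18 members (61.1%) and of 9.05% of all 4861 genes. Its Ldha level was 1524 CPM, against 411 CPM in the other 3678 cells, which stood 1.84-fold above submandibular mesenchyme. Aldoa was at 902 CPM in it and 324 CPM in the others. Clusters were built from the same counts, so this is a description. With the stricter barcode filter the Ldha ratio was 1.74. At 1.5-fold Aldoa joined Ldhb, where 8.69% of all genes were called, and Eno1, Pkm and Vegfa joined Ldha, where 6.75% were. The median log2 ratio of submandibular to parotid mesenchyme was -0.29 over the members and 0.01 over all genes.

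The monocarboxylate transporters move lactate and pyruvate through the cell membrane. Slc16a1 (MCT1) stood at 25.7 CPM in parotid epithelium, 21.5 CPM in submandibular epithelium, 14.7 CPM in parotid mesenchyme and 8.44 CPM in submandibular mesenchyme. Slc16a3 (MCT4), linked to lactate export, was at 24.0, 18.7, 14.3 and 6.46 CPM in that order. Both followed the same order of classes but stayed under the minimum level in every comparison. Of the chaperones of the monocarboxylate transporter family, Bsg varied from 445 to 613 CPM. Emb, another of them, was at 163 CPM in submandibular and 39.4 CPM in parotid epithelium, a 4.15-fold difference. Emb came from a list of 4 lactate partners, of which 2 could be compared in epithelium and 1 was called, where 1.64% of all genes were called in that direction. Between the tissues of the submandibular gland Emb was 46.2-fold higher in epithelium, against 3.54 CPM in mesenchyme.

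Pyruvate entry is gated by the pyruvate dehydrogenase kinases, which switch the complex off. Pdk1 stood at 51.2 CPM in parotid epithelium, 38.8 CPM in submandibular epithelium, 20.3 CPM in parotid mesenchyme and 15.9 CPM in submandibular mesenchyme. The epithelial excess was 2.53-fold (2.24 to 2.85) and 2.44-fold (2.18 to 2.74). Its relative Pdk3 showed no such excess, at 32.3 to 39.0 CPM in all 4 classes, with ratios of 1.06 and 1.03 and intervals that included 1. Pdha1, a catalytic subunit of the complex itself, was 1.35-fold and 1.46-fold higher in epithelium, short of 2-fold. Of 20 further genes of pyruvate entry and the tricarboxylic acid cycle, 16 could be compared between the epithelia and 17 between the mesenchymes, and 0 were called in either. Of all genes, 1.64% (submandibular) and 2.25% (parotid) were called between the epithelia, and 3.38% and 2.78% between the mesenchymes. In the parotid gland 1 of 16 was called between tissues, where 7.63% of all genes were called higher in mesenchyme. It was Mpc1, a subunit of the mitochondrial pyruvate carrier, at 82.5 CPM in epithelium and 181 CPM in mesenchyme. Its submandibular values were 84.0 and 164 CPM, a 1.95-fold difference, short of 2-fold. In that gland 1 of 17 was called, where 12.5% of all genes were called higher in mesenchyme. It was Ogdh, a subunit of the oxoglutarate dehydrogenase complex, at 19.0 CPM in epithelium and 38.1 CPM in mesenchyme, a 2.01-fold difference.

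The hypoxia response genes did not share 1 pattern. Mif, a cytokine and known target of hypoxia-inducible factor, was at 2373 and 2533 CPM in parotid and submandibular epithelium and at 1131 and 1043 CPM in the mesenchymes, a ratio of 2.098 (2.06 to 2.13) and 2.43 (2.39 to 2.46). Higd1a, a small mitochondrial protein, followed with 274 and 326 CPM against 236 and 167 CPM. Vegfa, the growth factor that draws in blood vessels, ran against them. It stood at 30.3 CPM in parotid epithelium, 19.5 CPM in submandibular epithelium, 52.4 CPM in parotid mesenchyme and 26.6 CPM in submandibular mesenchyme, and in the parotid the mesenchyme was 1.73-fold (1.54 to 1.94) higher. Parotid mesenchyme was 1.97-fold (1.79 to 2.17) above submandibular mesenchyme in Vegfa, and 2.14-fold under TMM or 2.18-fold under the median of ratios, past the rule. Bnip3, a mitophagy receptor, was even over the classes at 42.0 to 54.1 CPM. P4ha1, a collagen prolyl hydroxylase, varied from 29.0 to 41.1 CPM.

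Egln3, an oxygen-sensing hydroxylase that is itself induced by hypoxia, was at 9.50 CPM in parotid mesenchyme and 2.47 CPM in submandibular mesenchyme, a 3.85-fold (2.88 to 5.20) difference below the minimum level. Adm and Ndrg1, both strongly induced in hypoxic cells, stood at only 0.371 to 1.86 CPM and 0.549 to 2.47 CPM over the 4 classes. Of 9 genes of oxygen sensing, 3 could be compared between the epithelia and 1 was called, where 2.25% of all genes were called higher in parotid. It was Cited2, a coactivator-binding inhibitor of hypoxia-inducible factor, at 61.5 CPM in parotid and 18.7 CPM in submandibular epithelium. Cited2 was higher in the mesenchymes, at 116 and 86.7 CPM. Within the glands 3 genes of this list could be compared. In the parotid 0 were called. In the submandibular gland Cited2 alone was called, 4.64-fold higher in mesenchyme, where 12.5% of all genes were called. Hif1a itself was at 54.6 and 54.1 CPM in parotid and submandibular epithelium. Of 18 other hypoxia targets, 6 could be compared between the epithelia and 0 were called, where 1.64% and 2.25% of all genes were. Between the mesenchymes 2 of 7 were, Lox, a collagen cross-linking enzyme, at 74.6 CPM in parotid against 13.5 CPM, and Ddit4, an inhibitor of mTOR, at 41.5 CPM in submandibular against 17.1 CPM. Of all genes, 2.78% were called higher in parotid and 3.38% in submandibular mesenchyme. Between the tissues, 2 of 7 were called higher in epithelium and 2 in mesenchyme in the parotid, and 1 of 6 in each direction in the submandibular gland. The shares of all genes were 5.48% (epithelium) and 7.63% (mesenchyme) in the parotid and 7.66% and 12.5% in the submandibular gland. Car12, a carbonic anhydrase, was 28.3-fold and 16.5-fold higher in epithelium, and Plod2, a collagen lysyl hydroxylase, 3.90-fold and 2.77-fold higher in mesenchyme. Lox was at 0.151 CPM in parotid epithelium.

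Set gland against gland, the epithelia differed in few members. Of 20 that could be compared, 0 were called higher in submandibular epithelium, where 1.64% of all 4585 genes were called, and 2 (Slc2a3 and Eno1) in parotid epithelium, where 2.25% were. At 1.5-fold, Slc2a1, Aldoa and Ldhb joined them in the parotid, where 5.5% of all genes were called, and 0 in the submandibular, where 4.27% were. Ldhb was 1.95-fold (1.89 to 2.01) and Aldoa 1.61-fold (1.57 to 1.65) higher. In the 119 epithelial-like cells of the parotid mesenchyme library they were only 1.38-fold and 1.21-fold above submandibular epithelium. The median log2 ratio of submandibular to parotid was -0.33 over the members and 0.02 over all genes, and 15 of 20 members lay below 1. TMM and the median of ratios shifted the median of all genes by more than 0.1, to 0.13 in epithelium and to -0.11 and -0.13 in mesenchyme. The members' medians then became -0.21 and -0.22 in epithelium and -0.41 and -0.44 in mesenchyme. Between the tissues of the submandibular gland the median of all genes became 0.24 and 0.26. With no minimum level, the shares of all genes called were 5.22% (submandibular) and 20.7% (parotid) between the epithelia and 16.5% and 12.5% between the mesenchymes. Within the glands they were 19.6% (epithelium) and 14.7% (mesenchyme) in the parotid and 10.7% and 31.3% in the submandibular gland.

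Cells with Slc2a3 UMIs were a minority of parotid epithelium. Of 1750 epithelial-like cells, 353 (20.2%, 18.3 to 22.1) had at least 1. In submandibular epithelium 3.82% of cells did, in parotid mesenchyme 3.58% and in submandibular mesenchyme 5.76%, at median depths given above. With every cell thinned to 3000 UMIs, and shallower cells left out (79, 13, 114 and 148 cells in the same order), the shares were 11.3%, 1.22%, 1.82% and 3.61%. No class that should lack the gene was large enough in the parotid epithelium library to give its background share: 7 mesenchymal-like cells held 0 UMIs, which allows a share of up to 42.9%. Of the 89 unnamed barcodes there, with a median depth of 2343 UMIs, 2.25% (0.273 to 7.88) had a UMI. In the mesenchyme libraries, erythroid-like cells had 0 UMIs in 69 parotid and 106 submandibular cells, which allows a share of up to 4.35% and 2.83% of cells with a UMI at median depths of 16904 and 17195 UMIs. Those depths include haemoglobin UMIs, so they are not like depths of epithelial cells. Within parotid epithelium the UMIs were unevenly spread. A single UMI was seen in 219 cells, 2 to 9 UMIs in 94 cells, and 10 or more in 40 cells, with a highest count of 38. In submandibular epithelium 17 cells had 2 or more.

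All 40 cells with 10 or more UMIs lay in a single cluster of 80 cells. It held 849 of the 1232 Slc2a3 UMIs of parotid epithelium (68.9%) but only 74 of the 353 cells with a UMI (21.0%). Its level was 1653 CPM (1544 to 1768), with a median of 9.5 UMIs per cell. Besides Slc2a3 its leading genes included Gabrp, Cldn3, Cldn23, Rhov, Upk1b and Pvrl4, which encode a GABA receptor subunit, claudins of tight junctions, a small GTPase, and surface proteins of layered or lining epithelia. The 9 markers of periderm, the flat outer layer of embryonic surface epithelium, summed to 6067 CPM in it. High sums of these markers did not always come with Slc2a3. A parotid cluster of 110 cells had 2262 CPM of periderm markers and 9.11 CPM of Slc2a3. A submandibular cluster of 296 cells, which shared the leading genes Cldn23 and Rhov, had 1853 CPM of periderm markers and 5.71 CPM of Slc2a3.

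Next after the 80-cell cluster came a parotid cluster of 178 cells led by the connexin genes Gjb2 and Gjb6, at 139.9 CPM (117.8 to 165.0), and a related cluster of 71 cells at 54.3 CPM. The other 8 parotid epithelial clusters lay between 6.76 and 29.1 CPM, and the interval of each overlapped with that of its neighbour in the order. Submandibular epithelial clusters lay between 2.34 and 10.0 CPM. Outside the 80-cell cluster, 279 of 1670 cells (16.7%) had a UMI and the highest count was 9. Macrophages can carry Slc2a3, and macrophage genes (C1qc, C1qb and Tyrobp) were among the leading genes of a parotid cluster of 261 cells, which stood at 23.7 CPM of Slc2a3. The 8 macrophage markers, of which all 8 were seen, summed to 47.1 CPM in cells with a Slc2a3 UMI and 11.3 CPM in cells without. In all, 4 epithelial-like cells of the parotid had 3 or more macrophage marker UMIs, and they held 1 Slc2a3 UMI.

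**Figure D4:**
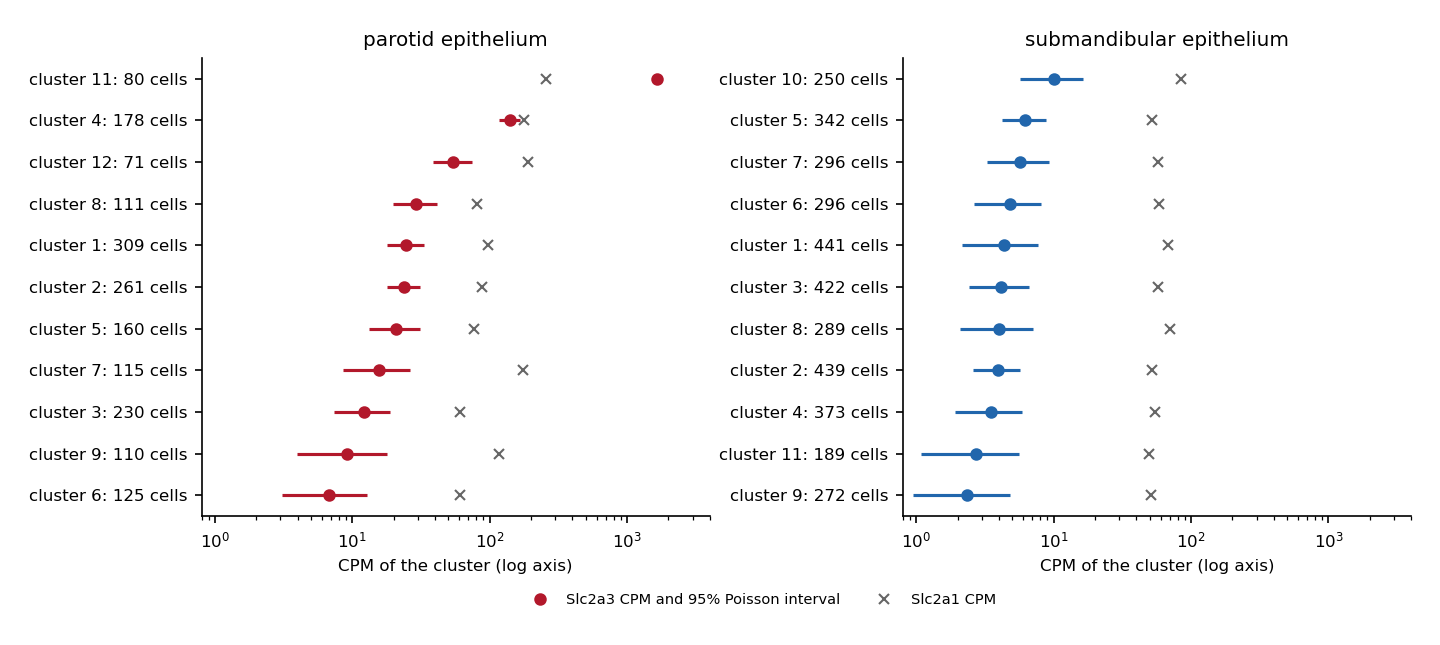
Slc2a3 level (circles, bars are 95% Poisson intervals) and Slc2a1 level (crosses) of each epithelial cluster, as CPM on a log axis, parotid left and submandibular right. Cluster 11 of the parotid reaches 1653 CPM of Slc2a3, above its Slc2a1 level of 257 CPM, while no submandibular cluster exceeds 10.0 CPM.

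None of the other members reached a 2-fold difference with Slc2a3. Between the 353 parotid epithelial cells with a Slc2a3 UMI and the 1397 without, 22 of the 32 other members could be compared, and 0 were called in either direction, where 1.44% of all 4661 genes were called higher with Slc2a3 and 0.172% higher without. The median log2 ratio of cells with to cells without was -0.08 over the members and -0.01 over all genes. Slc2a1 was the highest of them, at 152 CPM with and 97.0 CPM without Slc2a3, a ratio of 1.57 (1.39 to 1.76). Slc16a1 followed at 33.9 and 23.5 CPM, a ratio of 1.44 (1.12 to 1.83), and Ldhb at 635 and 496 CPM, a ratio of 1.28 (1.21 to 1.35). Ldha was lower with Slc2a3, at 875 against 1109 CPM, a ratio of 0.789 (0.755 to 0.825). Gapdh, Pkm and Mif were lower too, with ratios of 0.862, 0.857 and 0.812.

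Cells with and without Slc2a3 had median depths of 6952 and 7141 UMIs. Immediate early and heat shock genes summed to 4956 CPM with and 3135 CPM without Slc2a3, and periderm markers to 1696 and 680 CPM. The part of either in these ratios was not tested. Without the 80-cell cluster 0 members were called, where 0.392% of all genes were called higher with and 0.152% higher without Slc2a3. The median log2 ratio was then 0.01, and the ratios were 1.30 for Slc2a1, 1.67 for Slc16a1, 1.41 for Ldhb and 0.866 for Ldha. The clusters of 178 and 71 cells with high Gjb2 and Gjb6 held 87 and 28 of the cells with Slc2a3. They stood at 60.5 and 55.7 CPM of Slc16a1, 891 and 882 CPM of Ldhb, and 582 and 805 CPM of Ldha. The medians over the 11 clusters were 19.9, 534 and 984 CPM. The part of this mix of clusters in each ratio was not tested. With cells without Slc2a3 weighted to the same clusters as those with it, 0 were called, where 0.556% and 0.107% of all genes were, and the median was -0.002. Under the stricter barcode filter 0 were called, where 0.283% and 0.218% were, and the median was 0.02. With at least 2 UMIs as the limit, 134 cells remained, the median was -0.34, and 1 member, Slc2a1, was called at a ratio of 2.08, where 4.84% and 0.929% of all genes were. At that limit the ratio of Slc16a1 was 0.977 (0.623 to 1.47), so its direction turned. Thinned to 3000 UMIs, Slc2a1 was again called, at 2.07, where 3.38% and 0.634% were.

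**Figure D5:**
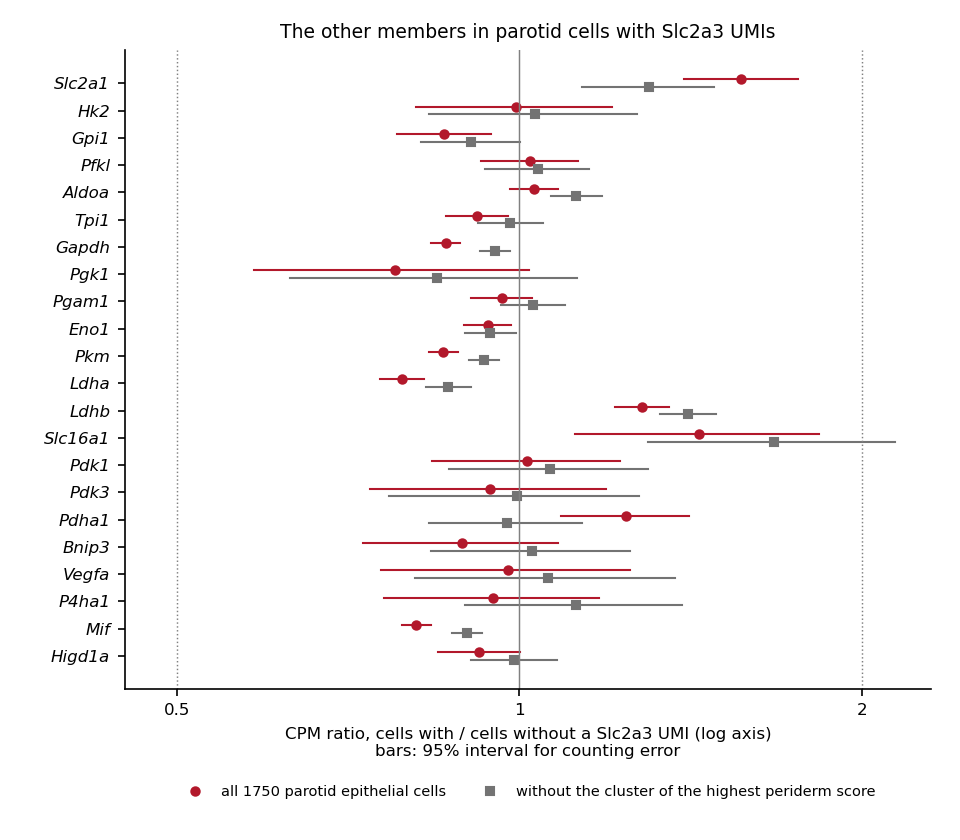
Ratio of CPM in parotid epithelial cells with a Slc2a3 UMI to cells without, on a log axis, for the 22 members that could be compared (circles; bars are 95% counting intervals), and the same without the 80-cell cluster of the highest periderm score (squares); dotted lines mark 2-fold. Slc2a1, Slc16a1 and Ldhb stand to the right of 1 and Ldha, Gapdh, Pkm and Mif to the left with and without that cluster.

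The 80-cell cluster itself combined high RNA of both glucose transporters with a low summed level of glycolytic enzyme RNA, though not every enzyme was low. Its Slc2a1 level of 257 CPM was the highest of the 11 parotid epithelial clusters, whose lowest was 60.8 CPM. Of the 33 members, 15 had their lowest level of all 11 clusters in it. Among genes of at least 25 CPM in parotid epithelium, 14 of 23 members did (60.9%), and 26.3% of all 4623 genes. Among them were Gapdh at 993 CPM (1805 to 2720 CPM in the others), Pkm at 1200 CPM (1747 to 2912 CPM) and Ldha at 487 CPM (582 to 1566 CPM). Pdha1, at 222 CPM, and the aldolase Aldoc, at 29.2 CPM, were highest in it. Pfkl, at 187 CPM, stood at the median of the 11 clusters, and Eno1, at 765 CPM, above the lowest cluster, at 669.9 CPM. Slc16a1, the monocarboxylate transporter, was lowest in it, at 5.84 CPM. The 15 glycolytic enzymes summed to 4475 CPM in this cluster and to between 6298 and 9101 CPM in the other 10. Its median mitochondrial share was 6.62%, the highest of these clusters. Its cells had a median of 5577.5 UMIs, the lowest, though close to the 5615.5 of the next cluster. Its immediate early sum was 10972 CPM, against 2258 to 5326 CPM in the other 10. The part of these measures in the low enzyme levels was not tested.

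Genes outside the list that differed most between cells with and without Slc2a3 were largely those of the 80-cell cluster. By ratio the 10 highest with Slc2a3 included Gabrp, Cldn23, Upk1b, Rhov, Cldn3, Aldh3b2, Penk, Krt7 and Smtnl2. Gabrp stood at 142 CPM with and 1.14 CPM without Slc2a3, a ratio of 124 (70.3 to 243), which became 6.63 without that cluster. Of these, Rhov, Cldn3, Penk and Smtnl2 had ratios between 0.623 and 1.16 without it. The 5 lowest were Igfbp3, an IGF-binding protein, Etv4, Dusp6 and Etv5, targets of FGF signalling, and St6gal1, a sialyltransferase. Etv4 was at 16.9 CPM with and 50.6 CPM without Slc2a3, and its ratio of 0.335 was 0.402 without the 80-cell cluster. Igfbp3 stood at 0.331, and at 0.397 without that cluster. Weighted to the same clusters, the ratios of Igfbp3 and Etv4 were 0.879 and 0.818.

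Over the 11 parotid epithelial clusters, the genes whose log2(CPM + 10) followed that of Slc2a3 most closely were Fosb (Pearson r 0.97), an immediate early gene, Amotl2 (0.97), an angiomotin, Hibadh (0.97), an enzyme of valine breakdown, Prdx5 (0.96), a peroxiredoxin, and Krt7 (0.96), a keratin of simple epithelia. The 11 points share 1 library and 1 clustering, and the 80-cell cluster is far from the others. Without it the values were 0.94, 0.92, 0.85, 0.80 and 0.87. At a pseudocount of 1 CPM, 3 of the 5 remained among the first 5. Among the members the highest were Pdha1 at 0.82, Aldoc at 0.76 and Slc2a1 at 0.74. The lowest were Mif at -0.98, Pgk1 at -0.96 and Pkm at -0.95, followed by Gapdh at -0.92 and Ldha at -0.89. Without the 80-cell cluster the first 3 became 0.19, 0.24 and 0.63. Mif, Pgk1, Pkm, Gapdh and Ldha then stood at -0.90, -0.83, -0.85, -0.55 and -0.93.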

How the data were processed

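The deposited files hold whole-number UMI counts per gene and cell barcode; the authors made them with Cell Ranger 2.1.1 on mm10, per the submitters' processing notes. Barcodes under 500 genes or above 10% mitochondrial UMIs were left out (libraries held 1996 to 4971 barcodes and 14004908 to 39621166 UMIs). Cells were clustered per library with scanpy 1.11.5 (2000 variable genes, 30 components, 15 neighbours, Leiden resolution 0.8) and classes named from marker lists. Clusters with Epcam in at least 50% of cells were named epithelial, and clusters with a median mitochondrial share under 1% outside erythroid cells were left unnamed; both rules were chosen after seeing the data. Scrublet called 18 of 14884 barcodes (0.121%), too few to have worked. The 18 called were left out of the values reported, in which other doublets may remain. UMIs were summed per class and given as CPM with Poisson intervals, shares with Clopper-Pearson intervals, and ratios with conditional binomial intervals. TMM factors came from edgeR 4.0.16. The computation of ratios and calls was tested on simulated data. The members and lists were chosen with earlier results of these data known. All members are named; other genes are the 10 highest and 5 lowest in the Slc2a3 comparison, the 5 most correlated with Slc2a3, and up to 3 of each further list with the largest ratio. Of the 10 highest, 1 gene is not reported here. Genes that lead clusters are named as descriptions. Alternatives were other scalings, level and fold limits, barcode filters, thinning, class rules and weightings.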

Additional observations from a re-analysis of the deposited data

Results flagged for a closer look

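The gland difference of 2 members ran in opposite directions in the 2 tissues. Aldoa, the main aldolase, had a log2 ratio of submandibular to parotid of -0.69 in epithelium and 0.59 in mesenchyme. Ldhb, the lactate dehydrogenase subunit that favours lactate use, had -0.97 in epithelium and 1.28 in mesenchyme. The epithelial differences were smaller in the 119 epithelial-like cells of the parotid mesenchyme library. These stood 1.21-fold (1.11 to 1.31) above submandibular epithelium in Aldoa and 1.38-fold (1.24 to 1.52) in Ldhb. With 1 library per group, neither difference between tissues was tested.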

How the results depend on the processing

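Of 173 alternative values of 18 summary results, 133 kept within their limits, 38 moved and 2 changed sign. With no minimum level, members called were 4 higher in parotid than submandibular epithelium, 4 higher in submandibular and 3 in parotid mesenchyme, 14 in parotid epithelium and 2 in parotid mesenchyme, and 13 in submandibular epithelium and 7 in its mesenchyme, where 20.7%, 16.5%, 12.5%, 19.6%, 14.7%, 10.7% and 31.3% of all genes were called in that order; the medians were -0.13 between mesenchymes and 0.55 within the submandibular gland. At 1.5-fold, 5 were higher in parotid epithelium between glands, 2 in submandibular and 4 in parotid mesenchyme, and 1 in parotid mesenchyme against its epithelium, where 13 were higher. TMM and the median of ratios called 2 higher in parotid mesenchyme between glands. The median of ratios gave a median of -0.44 there. Within the parotid gland the median was 0.86 under both scalings, 0.87 at 50 CPM in the higher group, 0.88 thinned, 0.79 without the 80-cell cluster and 0.66 with all kept barcodes, which left 5 members called. Within the submandibular gland it was 1.14 (TMM), 1.16 (median of ratios), 0.91 at 50 CPM, 0.80 under the stricter barcode filter and 0.77 with classes named by the leading marker list alone. The stricter filter and the lack of the 80-cell cluster each left 1 member higher in parotid epithelium between glands; the stricter filter left 0 in parotid mesenchyme. The share of cells with Slc2a3 was 7.66% at 2 UMIs, 11.3% thinned, 15.9% under the stricter filter and 16.7% without that cluster. Members called higher with Slc2a3 were 1 at 2 UMIs and 1 thinned, and their median changed sign to 0.023 (stricter filter) and 0.014 (without that cluster). At a pseudocount of 1 CPM, 3 of the 5 genes most like Slc2a3 remained. Where no value above shows it, the cause was not tested.

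Of 858 alternative values of 78 single log2 ratios in the 4 comparisons of classes, 639 stayed and 219 moved. In 16, over 8 members, the sign turned, for main values of at most 0.24. In the comparison by Slc2a3, Slc16a1 turned from a ratio of 1.44 to 0.977 at 2 UMIs, and Pdha1 from 1.24 to 0.974 without the 80-cell cluster. Depth limits members under 25 CPM. No paired analysis was possible because each group is 1 library and the labels carry no replicate numbers.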

Other observations

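The mesenchyme libraries also held smaller classes whose members differed from the mesenchymal cells around them. Skeletal muscle-like cells (233 parotid and 130 submandibular) had the highest summed level of the 15 glycolytic enzymes among the named classes of at least 50 cells in their libraries, at 8014 and 6997 CPM. They stood at 1788 and 1134 CPM of Ldha, and at 113 and 74.7 CPM of the muscle enolase Eno3. Endothelial-like cells (62 and 139) had the highest Slc2a1 of those classes, at 194 CPM (161 to 232) and 109 CPM (91.6 to 128), and little Ldhb, at 51.8 and 71.0 CPM. Erythroid-like cells (69 and 106) were low in the same enzymes, which summed to 539 and 432 CPM. Haemoglobin genes mark these cells and count in the CPM total, which lowers the CPM of every other gene. No difference here was tested.

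The parotid mesenchyme library held 119 epithelial-like cells, which formed 1 cluster and were named by marker genes. How far they represent parotid epithelium was not tested. In them Eno1 stood at 443 CPM, Slc2a1 at 59.5 CPM and Slc2a3 at 23.6 CPM. All 3 values lay below those of the parotid epithelium library (835, 108 and 93.2 CPM), and the Eno1 and Slc2a3 values lay above those of submandibular epithelium (316 and 4.48 CPM). For Slc2a3, 68.9% of the UMIs behind the 93.2 CPM came from the 80-cell cluster. Without it that library was 6.74-fold above submandibular epithelium, inside the interval of the 119 cells (5.28-fold, 3.32 to 8.06). The mix of cells was not matched between the libraries. The Slc2a1 value was close to the 57.3 CPM of submandibular epithelium, whose level lay inside its interval.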
